A study of Mus musculus with 26 samples.

Results

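The genes described here encode 2 families of ligand-gated cation channels of sensory neurons: 6 P2X channels (*P2rx2* to *P2rx7*) and 4 acid-sensing channels (*Asic1* to *Asic4*). They are 10 of the 55401 genes in the count tables and were taken by name, not by a threshold on their values, with earlier results of these data known. All 10 passed the filter on low counts in each set of libraries.

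P2X channels are trimers that open when extracellular ATP binds, so they report ATP released from damaged or stretched tissue. P2X3, alone or with P2X2, is the form for which small-diameter pain-sensing neurons are known, while P2X4 and P2X7 are best known from microglia, macrophages and glia. Acid-sensing channels are trimers that open when the extracellular fluid becomes acidic, and ASIC3 is known for acid-evoked pain in muscle and other deep tissue.

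RNA was sequenced from mouse dorsal root ganglia (DRG), which hold the cell bodies of sensory neurons together with their glia, in a study of the aryl hydrocarbon receptor gene *Ahr*. Conditional knockout (cKO) mice were labelled Ahr f/f with Thy1-CRE(ERT2/EYFP): both *Ahr* alleles were floxed, and a *Thy1* promoter, active in many neurons, drove a tamoxifen-inducible Cre (with EYFP, a fluorescent protein). Controls were labelled Ahr fl/+ or Ahr fl/fl, that is 1 or 2 floxed alleles, with no Cre given. Tamoxifen (100 mg/kg, on each of 5 days) was given to naive and injured mice of both genotypes when they were 28 weeks old. Their lumbar DRG were taken 5 weeks later without surgery (naive) or 1 day after a sciatic nerve crush (injured), with 3 mice in each of the 4 groups and 1 mouse per library. A supplemental table held 14 more libraries. Of these, 6 came from semi-purified DRG neurons 24 hours after seeding (3 control, 3 cKO). The other 8 came from DRG 1 day after sham surgery, on the operated (ipsilateral) and the opposite (contralateral) side of 2 mice per genotype. No tamoxifen schedule or age is given for these 14 libraries in the labels used here.

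Libraries of naive and injured ganglia held 20169388 to 23540375 counts each. Sham ganglia were sequenced more deeply (39306414 to 58751270), and neurons varied from 25299938 to 88180611. *Ahr* itself did not pass the test between genotypes in any setting (log2 fold change 0.17 in naive ganglia, 0.07 in injured ganglia and -0.05 in neurons), and counts over a whole gene cannot show the loss of a floxed part. *Thy1*, whose promoter drives the Cre, was higher in cKO by 0.86 (SE 0.076) in naive ganglia and by 0.79 (SE 0.075) in injured ganglia on the log2 scale, with adjusted p of 0.00191 and 0.00521 by edgeR's quasi-likelihood test. Its values in neurons (1.01, SE 0.182) and on the ipsilateral (0.51) and contralateral (0.71) sham sides did not pass that test (adjusted p 0.2985, 0.498 and 0.105). The transcripts of 2 libraries went against their labelled sex: injured control replicate 3, labelled male, had female transcripts, and injured cKO replicate 2, labelled female, had male ones. *Thy1* stood at 719 to 769 CPM in the 3 injured control and 1182 to 1397 CPM in the 3 injured cKO libraries, so both lay with their labelled genotype. By transcripts all naive and neuron libraries were female, all sham libraries were male, and injured cKO held 1 female and 2 males. Neuron markers were detected in every group, and 4 skeletal muscle markers summed to 1603 CPM in sham ipsilateral cKO replicate 2 and to at most 352 CPM in any other library. In whole tissue, fewer cells of a type and less RNA per cell cannot be told apart.

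Promoter windows from RefSeq (GRCm38.p6, 250 bases before to 50 bases after a transcript's start) were at hand for 6 of the 10 genes, in 8 windows. *P2rx2*, *P2rx3*, *P2rx5* and *Asic4* were not matched. The windows were searched on both strands for GCGTG, the core of the element that AhR binds with its partner, which 32.4% of all 32851 promoter windows of this length hold, for the AP-1 site TGANTCA (7.81%) and for the CRE/ATF site TGACGTCA (1.79%). The GCGTG core had 1 match in the *Asic1* window and 1 in the upstream of the *Asic2* windows. The AP-1 site had 1 match, in the upstream *P2rx7* window, and the CRE/ATF site had none in these 8 windows. The windows of *Asic1*, which fell after injury in both genotypes, and of *P2rx6* and *Asic3*, the pair of genes that followed each other most closely across libraries, are shown 5′ to 3′ on the plus strand, with a match in capitals (CACGC is GCGTG read on the other strand). They lie at chr15:99691974-99692273, chr16:17561635-17561934 and chr5:24413201-24413500, and the *Asic1* window lies inside the span that GENCODE M21 gives for that gene. These letters describe the windows only, and binding was not measured.
Asic1: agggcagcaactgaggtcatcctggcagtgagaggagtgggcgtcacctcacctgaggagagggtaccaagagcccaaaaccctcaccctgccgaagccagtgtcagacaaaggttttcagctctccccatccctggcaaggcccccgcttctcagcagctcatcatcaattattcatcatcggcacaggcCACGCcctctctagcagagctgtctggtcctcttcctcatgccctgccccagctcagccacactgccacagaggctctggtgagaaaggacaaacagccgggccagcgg
P2rx6: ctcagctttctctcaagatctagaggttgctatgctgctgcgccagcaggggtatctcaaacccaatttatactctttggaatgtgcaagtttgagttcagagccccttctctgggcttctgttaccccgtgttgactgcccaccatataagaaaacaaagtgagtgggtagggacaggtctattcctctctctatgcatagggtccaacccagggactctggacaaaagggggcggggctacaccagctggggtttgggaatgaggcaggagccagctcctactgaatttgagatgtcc
Asic3: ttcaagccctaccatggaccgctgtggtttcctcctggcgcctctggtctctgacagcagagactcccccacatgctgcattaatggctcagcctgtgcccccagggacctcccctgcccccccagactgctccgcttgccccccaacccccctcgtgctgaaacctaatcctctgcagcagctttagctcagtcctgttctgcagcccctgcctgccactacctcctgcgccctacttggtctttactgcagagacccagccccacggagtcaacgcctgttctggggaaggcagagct

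*P2rx3* had the most RNA per length of the 10 genes in each of the 10 groups, at 51.2 to 118 CPM per kilobase of exon (CPM, counts scaled to the library total after TMM scaling over all 26 libraries; group means). *Asic2* and *Asic3* held ranks 2 and 3 in every group, at 24.98 to 41.4 and 12.9 to 53.5 CPM per kilobase. *Asic1* followed at rank 4 or 5 (4.29 to 23.9), and *P2rx6*, *P2rx5* and *P2rx4* lay between ranks 4 and 7. *P2rx7* (1.79 to 2.87) and *P2rx2* (0.812 to 2.82) held ranks 8 and 9. *Asic4*, a subunit that is not known to open to acid by itself, was last throughout at 0.363 to 0.689 CPM per kilobase, from 21 to 162 counts per library. The order depended on the length used. In the deposited FPKM, which divide by the whole gene span including introns, *Asic2*, whose span is 1088289 bases with 4264 bases of exon, held rank 9 and *Asic3* rank 1 or 2. *P2rx3* held rank 2 there, behind *Asic3*, in every group but control neurons, where it held rank 1.

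Levels of single genes also differed between groups, as the plot of CPM by library shows. *Asic1* ranged most, from 24.6 CPM in control neurons to 137 CPM in contralateral control sham ganglia (5.59-fold). *P2rx6* and *Asic3* followed, with their lowest means in control neurons (13.7 and 31.3 CPM) and their highest in control sham ganglia (56.6 and 129.6 CPM). *P2rx7* and *Asic2* ranged least (1.61-fold and 1.66-fold). For *P2rx3* the 4 sham groups came first (306 to 330 CPM), then the neurons (279 and 287 CPM), then injured ganglia (170.1 and 179 CPM) and naive ganglia (143 and 148 CPM). Neighbours in that order overlapped except cKO neurons against injured control and injured cKO against naive cKO. For *P2rx7* every neighbour in the order overlapped except the lowest group, sham ipsilateral cKO. Sham ganglia, naive ganglia and neurons also differ from each other in some of table, depth, sex and tissue, which cannot be told apart in these levels. The 6 neuron markers summed to 4692 to 5369 CPM in sham libraries against 2866 to 3170 CPM in naive and injured ones.

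**Figure D1:**
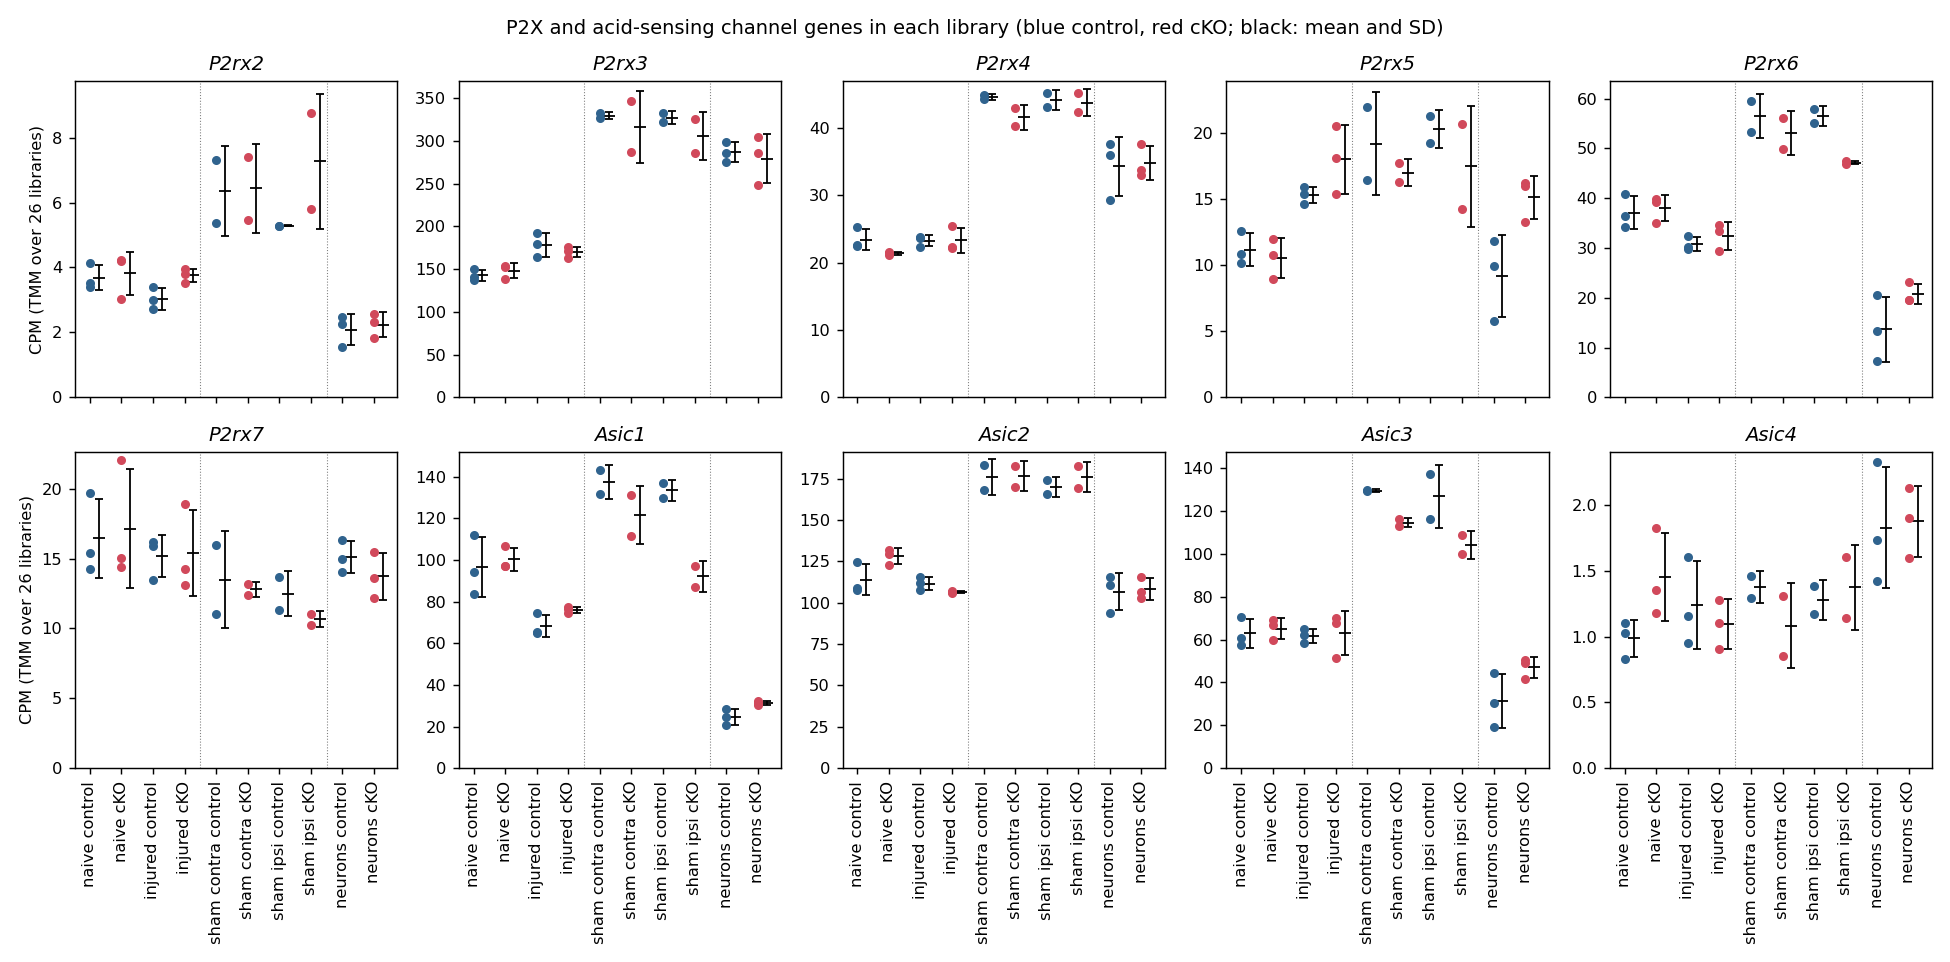
Level of each gene in CPM (linear axis from 0) in every library of the 10 groups, blue for control and red for cKO, with group mean and SD in black. *P2rx3* runs from 138 to 347 CPM and *Asic4* stays between 0.831 and 2.33 CPM.

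The crush of the sciatic nerve was compared with naive ganglia within each genotype. Naive mice had no surgery, so nerve crush and surgery cannot be told apart in these comparisons. In control mice *P2rx3* and *P2rx5* rose and *P2rx6* and *Asic1* fell, 4 of 10 genes, beside 21.6% of all 21261 genes tested (12.9% higher, 8.73% lower). In cKO mice *P2rx5* rose and *Asic1* and *Asic2* fell, 3 of 10 beside 18.6% of all genes (10.7% higher, 7.89% lower). All changes were under 2-fold. The median log2 fold change of the 10 genes was -0.03 in control and -0.11 in cKO mice, against -0.02 and -0.0046 over all genes.

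Among the P2X channels, *P2rx3* (ENSMUSG00000027071.14, chromosome 2, 84998583 to 85037462, minus strand, GRCm38) encodes the main ATP-gated subunit of pain-sensing neurons. It stood at 141, 149.8 and 138 CPM in naive control and 180.0, 192 and 164 CPM in injured control ganglia, and at 154, 138 and 152 CPM in naive cKO and 163, 171 and 176 CPM in injured cKO ganglia. Every injured library lay above every naive library of its genotype. The log2 fold change was 0.32 (SE 0.068, adjusted p = 0.00500, edgeR's quasi-likelihood test with Benjamini-Hochberg adjustment) in control and 0.18 (SE 0.068, adjusted p = 0.0805) in cKO mice. Its neighbour *Ssrp1* shares 229 bases with it and had 40.0% of its counts over all libraries, with log2 fold changes of -0.02 and -0.05 after injury that did not pass the test.

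*P2rx5* (ENSMUSG00000005950.14, chromosome 11, 73160421 to 73172685, plus strand), another P2X subunit, was the member with the largest rise. It stood at 10.2, 12.6 and 10.8 CPM in naive control and 15.4, 15.9 and 14.7 CPM in injured control ganglia. In cKO mice it stood at 10.8, 8.95 and 11.97 CPM before and 15.4, 20.6 and 18.1 CPM after injury. The groups did not overlap in either genotype. The log2 fold change by edgeR's quasi-likelihood test was 0.46 (SE 0.129, adjusted p = 0.0251) in control and 0.76 (SE 0.129, adjusted p = 0.00158) in cKO mice. In control mice the call was lost without naive replicate 1, naive replicate 3, injured replicate 1 or injured replicate 2 (adjusted p 0.0822, 0.0799, 0.0752 and 0.0849).

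*P2rx6* (ENSMUSG00000022758.14, chromosome 16, 17561885 to 17577800, plus strand) encodes a subunit known to work mainly in mixed channels with other P2X subunits. It stood at 34.2, 40.8 and 36.3 CPM in naive control and 30.3, 29.9 and 32.5 CPM in injured control ganglia, without overlap. It fell by 0.26 on the log2 scale (SE 0.086, adjusted p = 0.0479, edgeR's quasi-likelihood test) in control mice, and the value in cKO mice was -0.24 (SE 0.086, adjusted p = 0.0711). The call in control mice held in 5 of 14 alternatives, with adjusted p from 0.0309 to 0.146. Without naive control replicate 3, injured control replicate 1 or injured control replicate 2, neither *P2rx5* nor *P2rx6* was called, which left 2 of 10 genes. *Slc7a4*, on the opposite strand, shares 5783 bases with *P2rx6* and had 22.4% of its counts. Its own log2 fold changes after injury were -0.35 (adjusted p = 0.0634) and -0.49 (adjusted p = 0.0141), and the part of shared reads in the values of *P2rx6* was not tested.

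*P2rx2*, the partner of P2X3 in mixed channels, stood at 3.52, 4.13 and 3.40 CPM in naive control and 2.99, 3.39 and 2.72 CPM in injured control ganglia. These groups did not overlap, but the log2 fold change of -0.28 (SE 0.147) did not pass the test (edgeR adjusted p = 0.213). Counting also the 4 genes called, 5 of 10 genes had groups without overlap in control mice, beside 38.4% of all genes, and 6 of 10 in cKO mice, beside 36.3%. *P2rx4* (22.3 to 25.2 CPM in control mice) and *P2rx7* (13.4 to 19.7 CPM), the channels known from microglia, macrophages and glia, had log2 fold changes of -0.0072 and -0.11 in control mice and 0.11 and -0.17 in cKO mice, and neither passed the test. The 7 macrophage markers summed to 132 to 190.1 CPM in the naive and 145 to 182 CPM in the injured libraries, with a median log2 fold change of 0.06 in control and 0.09 in cKO mice.

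Among the acid-sensing channels, *Asic1* (ENSMUSG00000023017.10, chromosome 15, 99670368 to 99701130, plus strand), a subunit of acid-gated channels throughout the nervous system, fell in both genotypes. It stood at 83.7, 112 and 94.3 CPM in naive control and 65.1, 65.5 and 74.4 CPM in injured control ganglia. In cKO mice it stood at 97.1, 97.2 and 107 CPM before and 77.4, 76.6 and 74.5 CPM after injury. Every injured library lay below every naive library. It fell by 0.50 on the log2 scale (SE 0.097, adjusted p = 0.00318, edgeR's quasi-likelihood test) in control mice and by 0.41 (SE 0.096, adjusted p = 0.0103) in cKO mice. The call in control mice held in all 14 alternatives, and so did that of *P2rx3*.

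*Asic2* (ENSMUSG00000020704.13, chromosome 11, 80880169 to 81968457, minus strand), which forms mixed channels with ASIC1 and ASIC3, stood at 132, 123 and 129.6 CPM in naive cKO and 107, 106 and 107 CPM in injured cKO ganglia. All 3 injured cKO libraries lay below all 3 naive ones. It fell by 0.28 on the log2 scale (SE 0.063, adjusted p = 0.00823, edgeR's quasi-likelihood test). In control mice it stood at 108, 125 and 109 CPM before and 112, 115 and 108 CPM after injury, and the log2 fold change of -0.03 (SE 0.063) did not pass the test. The 6 genes that overlap the long span of *Asic2* had at most 0.125% of its counts each. The 6 markers of non-peptidergic nociceptors gave 4 lower after injury in cKO mice (median log2 fold change -0.40), and 1 higher and 2 lower in control mice (-0.14). The 6 markers of large-diameter afferents gave 2 lower in control mice (-0.25), and 1 higher and 1 lower in cKO mice (-0.12). The 6 markers of peptidergic nociceptors gave 2 higher and 0 lower in each genotype (0.09 in control and 0.11 in cKO mice). The part of these subtypes in the values of *Asic2*, *Asic1*, *P2rx6*, *P2rx3* and *P2rx5* was not tested.

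*Asic3*, the acid sensor of muscle afferents, stood at 57.5 to 70.6 CPM in naive control and 58.3 to 64.8 CPM in injured control ganglia, with log2 fold changes of -0.03 in control and -0.06 in cKO mice and 95% intervals from -0.28 to 0.22 and from -0.31 to 0.19. *Asic4* stood at 0.831 to 1.11 CPM before and 0.953 to 1.61 CPM after injury in control mice, and its intervals were wide (-0.21 to 0.87 in control, -0.94 to 0.10 in cKO mice). Neither was called.

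All naive libraries were female by transcripts and 2 of 3 injured cKO libraries male, the only males by transcripts among these 12 libraries. With transcript sex as a covariate the injury effect in cKO mice rests on injured cKO replicate 1 alone. The calls in cKO mice were lost in that fit, which cannot be told apart from loss of replicates. The log2 fold change of *P2rx5* went from 0.76 to 0.53, that of *Asic1* from -0.41 to -0.39, and that of *Asic2* was -0.28 in both fits. Without both libraries that went against their labelled sex, edgeR gave adjusted p of 0.0158 for *P2rx5*, 0.0407 for *Asic1* (log2 fold change -0.42) and 0.0532 for *Asic2*. In control mice all 6 libraries were female by transcripts, so the sex covariate could hardly alter that comparison, and 4 genes were called with it.

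**Figure D2:**
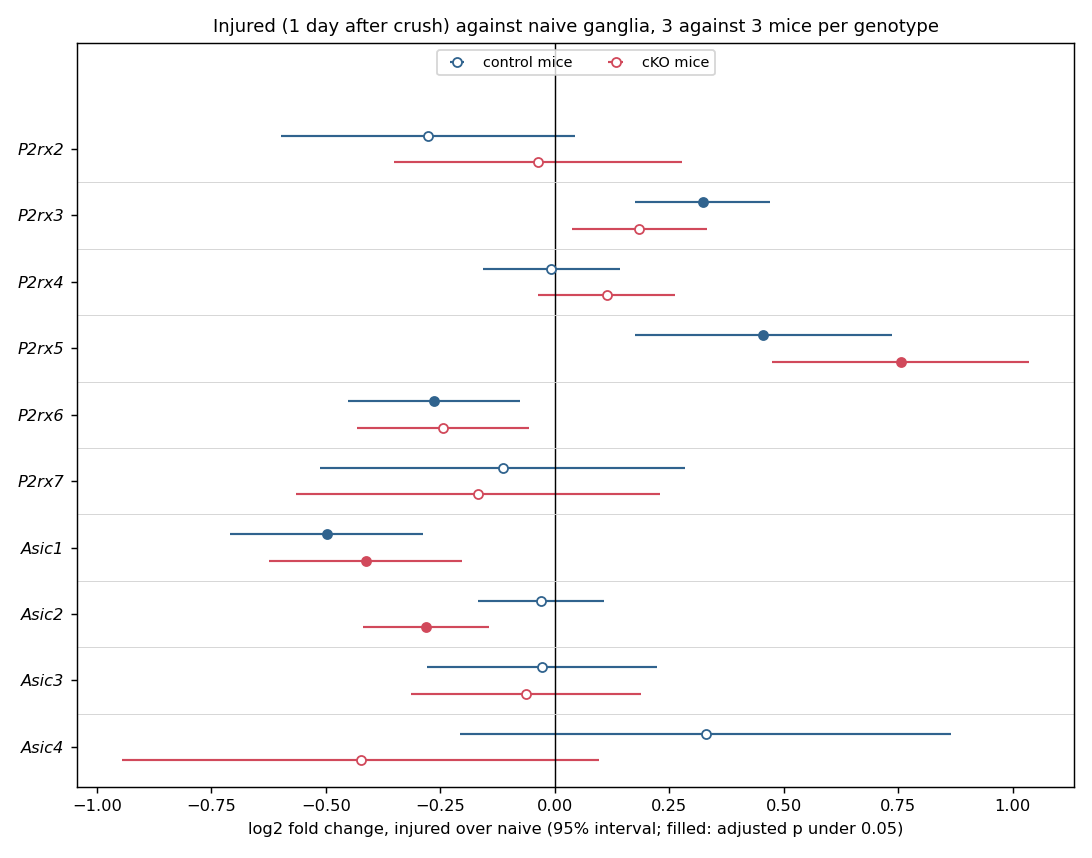
Log2 fold change of injured over naive ganglia for each gene with its 95% interval, blue in control and red in cKO mice (3 against 3 mice each), filled where the adjusted p was under 0.05. *P2rx5* is highest in both genotypes (0.46 and 0.76) and *Asic1* lies to the left of 0 in both (-0.50 and -0.41).

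Whether the injury effect differed between genotypes was tested directly by the interaction. By edgeR's quasi-likelihood test 0 of 10 genes was called, beside 0.0% of all genes, and DESeq2 also called 0. At an unadjusted p under 0.05 there were 2 of 10, beside 2.95% of all genes. These were *Asic2* (difference of log2 fold changes, cKO minus control, -0.25, 95% interval -0.45 to -0.06) and *Asic4* (-0.75, -1.5 to -0.0059), each with an adjusted p of 0.9999. For *P2rx5* the difference was 0.30 (-0.10 to 0.70) and for *P2rx3* -0.14 (-0.35 to 0.07). The calls that were made in 1 genotype alone are therefore not shown to differ between genotypes.

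The genotypes were then compared without and with injury. These comparisons use the same 12 libraries as the injury comparisons. In naive ganglia 0 of 10 genes was called by edgeR (0.00941% of all genes were) and 0 by DESeq2. At an unadjusted p under 0.05 there were 2 of 10, beside 5.79% of all genes. *Asic2*, at 132, 123 and 129.6 CPM in cKO against 108, 125 and 109 CPM in control ganglia, overlapped by 1 library, and its log2 fold change was 0.18 (SE 0.063, adjusted p = 0.754). *Asic4*, at 1.83, 1.18 and 1.35 against 1.03, 1.11 and 0.831 CPM, did not overlap, and its log2 fold change was 0.57 (SE 0.24, adjusted p = 0.754). Groups of *P2rx4* did not overlap either (21.1 to 21.6 CPM in cKO, 22.5 to 25.2 CPM in control), so that 2 of 10 genes were without overlap, beside 12.1% of all genes.

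In injured ganglia 0 of 10 genes was called by edgeR (0.00941% of all genes were) or by DESeq2, and 0 of 10 had an unadjusted p under 0.05, beside 2.72% of all genes. *P2rx2* had the largest value: 3.53, 3.79 and 3.94 CPM in cKO against 2.99, 3.39 and 2.72 CPM in control ganglia, a log2 fold change of 0.30 (SE 0.147, 95% interval -0.02 to 0.62). It was 1 of 3 genes whose groups did not overlap, with *Asic1* and *Asic2*, beside 8.73% of all genes. The interval of *P2rx3* was -0.22 to 0.07 and that of *Asic3* -0.23 to 0.28. Injured control held only females by transcripts and injured cKO 1 female and 2 males.

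In semi-purified neurons 0 of 10 genes was called between genotypes by edgeR (0.0% of all 23295 genes were), and DESeq2 called 0. At an unadjusted p under 0.05 there were 3 of 10, beside 8.0% of all genes, and these 3 were higher in cKO. *P2rx5* stood at 13.3, 16.2 and 16 CPM in cKO against 5.79, 9.95 and 11.8 CPM in control neurons. *Asic1* stood at 30.4, 32.5 and 31.1 against 20.6, 24.7 and 28.5 CPM. Both were without overlap, 2 of 10 genes beside 14.7% of all genes. The log2 fold changes were 0.70 (SE 0.217, adjusted p = 0.547) and 0.34 (SE 0.109, adjusted p = 0.547).

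*Asic3* and *P2rx6* overlapped between the genotypes of neurons. *Asic3* stood at 49.03, 50.7 and 41.5 CPM in cKO against 19.3, 30.4 and 44.2 CPM in control neurons, a log2 fold change of 0.57 (SE 0.243, adjusted p = 0.617). *P2rx6* stood at 19.6, 23.2 and 19.6 against 7.41, 13.2 and 20.5 CPM (0.58, SE 0.288, adjusted p = 0.635). For each of these 4 genes the lowest neuron library was control replicate 1, which also had the fewest counts, and without it the log2 fold changes were 0.34 for *Asic3*, 0.32 for *P2rx6*, 0.49 for *P2rx5* and 0.25 for *Asic1*. Without control replicate 3, the highest control library for all 4, they were 0.90, 0.98, 0.91 and 0.46. The 6 markers of large-diameter afferents summed to 1054 to 1595 CPM in control and 1525 to 1628 CPM in cKO neurons. The 6 of non-peptidergic nociceptors were all lower in cKO neurons (median log2 fold change -0.30, from -0.55 to -0.11). Those of peptidergic nociceptors went both ways (-0.28 to 0.55). None of these markers was called, and the part of these subtypes in the values was not tested. *P2rx3* stood at 276, 299 and 286 CPM in control and 304, 248 and 286 CPM in cKO neurons, with an interval from -0.24 to 0.16 on the log2 scale.

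On the operated side of sham mice, 2 against 2, 0 of 10 genes was called by edgeR (0.00451% of all 22160 genes were), while DESeq2 called 1, *Asic1*. *Asic1* stood at 86.9 and 97.2 CPM in cKO against 137 and 129.9 CPM in control ganglia, without overlap. Its log2 fold change was -0.50 (SE 0.098, adjusted p = 0.498 by edgeR and 0.00155 by DESeq2), and without filter on low counts edgeR called it with an adjusted p of 5.17e-04. DESeq2 called 152 genes in this comparison and edgeR without filter 626, against 1 gene in the fit reported here. *Asic3* (99.8 and 109 against 137 and 116 CPM, -0.25) and *P2rx6* (47.4 and 46.9 against 57.98 and 55.2 CPM, -0.23) were the others of 3 genes with an unadjusted p under 0.05, beside 7.59% of all genes. In all, 5 of 10 genes had groups without overlap, beside 35.8% of all genes. The skeletal muscle markers summed to 17.2 and 1603 CPM in the cKO and to 2.99 and 18.4 CPM in the control libraries of this side, and without the high library (ipsilateral cKO replicate 2) the value of *Asic1* was -0.60 (edgeR adjusted p = 0.119). That fit leaves 1 cKO library on this side, whose spread is assumed to be like that of the other groups.

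On the opposite side 0 of 10 genes was called by edgeR (0.0% of all genes were) or DESeq2, and 0 of 10 had an unadjusted p under 0.05, beside 5.23% of all genes. *Asic1* stood at 112 and 131 against 132 and 143 CPM, a log2 fold change of -0.18 (95% interval -0.41 to 0.05). *Asic3* stood at 113 and 116 against 129 and 130 CPM (-0.18, -0.39 to 0.03). With *P2rx4*, these were 3 of 10 genes without overlap, beside 38.3% of all genes. Between the sides of the same mice, averaged over genotypes, 0 of 10 genes was called by edgeR (0.00451% of all genes were) or DESeq2. The only one with an unadjusted p under 0.05, beside 7.56% of all genes, was *Asic1*, lower on the operated side by a log2 fold change of -0.20 (SE 0.069, adjusted p = 0.573). With the mouse as a block that pairs the sides, *Asic1* had -0.20 (adjusted p = 0.381), and 0.0181% of all genes were called.

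**Figure D3:**
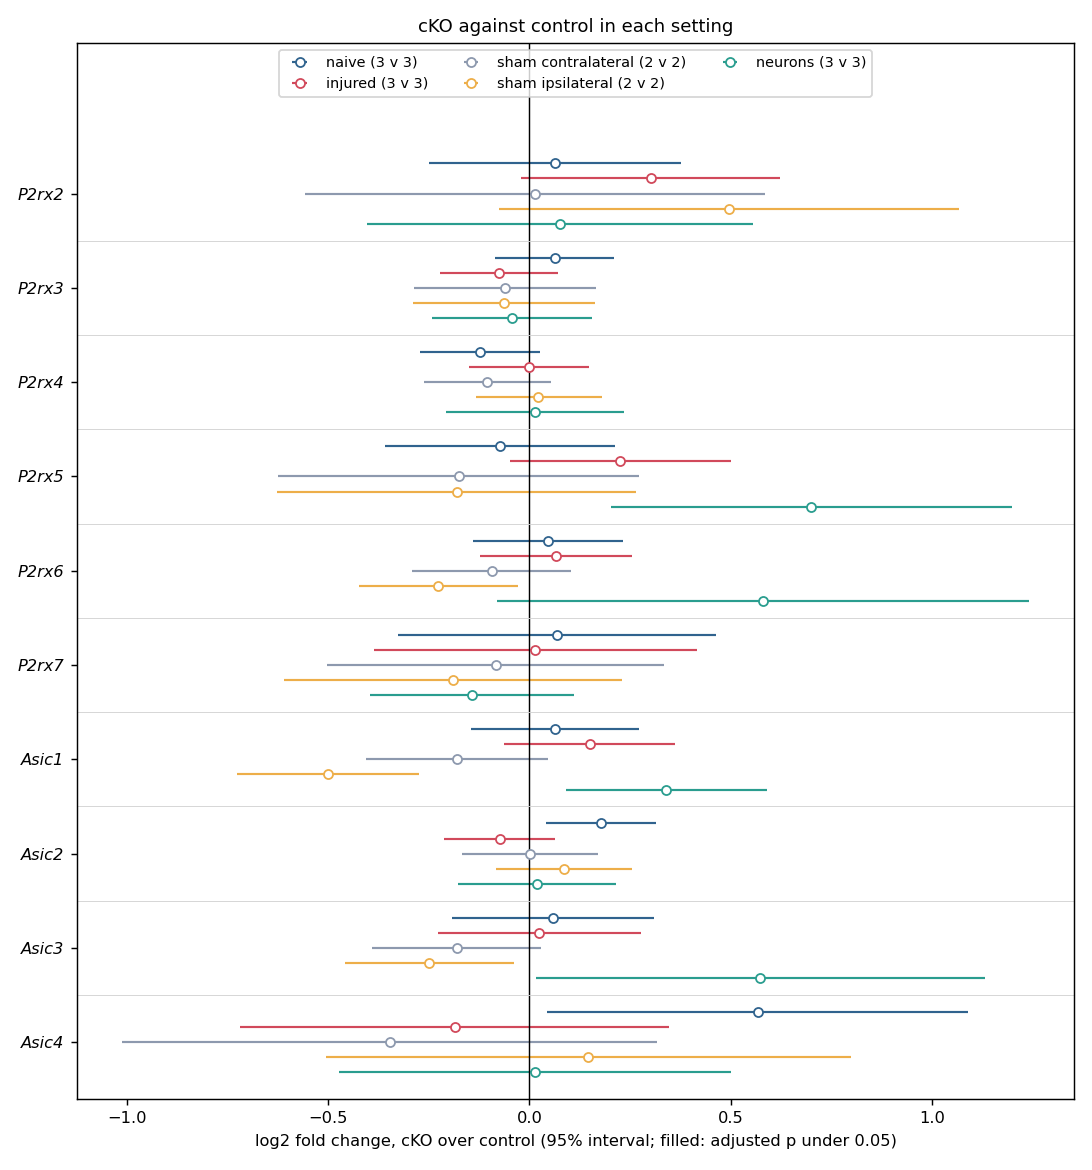
Log2 fold change of cKO over control for each gene with its 95% interval in 5 settings, with filled points for an adjusted p under 0.05. None is filled. *Asic1* lies at -0.50 on the operated side of sham mice and at 0.34 in neurons, and *P2rx3* lies within 0.08 of 0 in all 5 settings.

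Neurons 24 hours after seeding were set against naive ganglia of the same genotype. Library table, tissue preparation and tamoxifen schedule cannot be told apart from culture here, and 83.2% of all 22185 genes were called in control and 82.1% in cKO mice. By edgeR 7 of 10 genes were called in each genotype, 3 higher and 4 lower (41.7% and 41.6% of all genes in control, 42.0% and 40.1% in cKO mice). Groups did not overlap for 7 of 10 genes in control, beside 82.4% of all genes, and for 8 of 10 in cKO mice, beside 86.2%. In both genotypes *P2rx3* (log2 fold change 1.02 in control, 0.92 in cKO) and *P2rx4* (0.57 and 0.71) were higher in neurons, and *Asic1* (-1.95 and -1.68), *P2rx6* (-1.40 and -0.87) and *P2rx2* (-0.78 and -0.76) were lower. *Asic3* (-0.98) and *Asic4* (0.92) were called in control alone and *P2rx5* (0.53) and *Asic2* (-0.24) in cKO alone, and the difference between genotypes was not tested. In cKO mice the call of *P2rx5* was lost without naive replicate 1 or 2 or neuron replicate 2 or 3 (adjusted p 0.0799 to 0.148), and that of *Asic2* without neuron replicate 2 or 3 (0.0841 and 0.0668) or without filter on low counts (0.114). *P2rx7* was called in neither (-0.11 and -0.31). DESeq2 called 7 genes in control and 9 in cKO mice. In cKO mice *P2rx7* and *Asic3* (-0.47) were each called in 4 of 11 alternatives, DESeq2 among them.

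The libraries show the sizes. *Asic1* stood at 20.6 to 28.5 CPM in control neurons against 83.7 to 112 CPM in naive control ganglia. *P2rx3* stood at 276 to 299 CPM against 138 to 149.8 CPM. Sham ganglia, which share the supplemental table with the neurons, had higher means than neurons for *P2rx3* and *P2rx4*. These were 306 to 330 against 279 and 287 CPM for *P2rx3*, and 41.54 to 44.55 against 34.76 and 34.25 CPM for *P2rx4* (neurons of cKO and control mice). The 6 Schwann cell markers summed to 591 to 729 CPM in neurons against 3047 to 5004 CPM in naive ganglia, and the 6 neuron markers to 2438 to 3232 against 2866 to 3170 CPM. The sums of neuron markers overlapped, but all 6 neuron markers were called in both genotypes, 2 higher and 4 lower in neurons, with median log2 fold changes of -1.08 in control and -0.97 in cKO mice. The 5 endothelial markers, all higher in neurons, summed to 863 to 1303 CPM against 87.9 to 148 CPM in naive ganglia (median log2 fold change 3.34 in control and 3.07 in cKO mice). Most markers of each listed sensory subtype were lower in neurons. Of 6 for peptidergic nociceptors, 6 in control and 5 in cKO mice were lower (medians -0.58 and -0.64). Of 6 for large-diameter afferents, 5 in control and 4 in cKO mice were lower and 1 in each was higher (medians -1.74 and -1.13). Of 6 for non-peptidergic nociceptors, 5 were lower in each genotype (medians -1.16 and -1.60), while *P2rx3* was higher. The part of these cell types in the members' values was not tested. *Ssrp1*, the neighbour of *P2rx3*, was higher in neurons too (1.62 in both genotypes), and *Slc7a4*, that of *P2rx6*, was lower (-1.18 and -1.10). *Gm37264*, which shares 2192 bases with *Asic4* and had 22.3% of its counts, was higher by 1.13 (adjusted p = 0.0152) in control neurons, where *Asic4* was called, and had 0.53 (adjusted p = 0.183) in cKO neurons, by edgeR. The part of shared reads in these values was not tested.

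The other genes of ATP and adenosine signalling, 21 listed and 17 tested in the ganglia, gave 3 higher and 3 lower after injury in control mice and 2 higher and 4 lower in cKO mice, with medians of -0.0091 and -0.02 on the log2 scale beside -0.02 and -0.0046 over all genes. Of all genes 12.9% were higher and 8.73% lower in control mice, and 10.7% and 7.89% in cKO mice. *Nt5e*, the enzyme that makes adenosine from AMP, rose from 93.1 ± 8.52 to 149.8 ± 13.2 CPM in control mice (SD, n = 3 each, log2 fold change 0.69) and by 0.51 in cKO mice. *Panx1*, a channel through which ATP leaves cells, rose by 0.43 and 0.27. *P2ry1*, a G-protein-coupled receptor for ADP, fell by 0.47 and 0.73, and *Adora2a*, an adenosine receptor, fell by 0.75 and 0.93. *Slc29a1*, a nucleoside transporter, fell by 0.25 and 0.35, while *Adora2b* rose in control mice (0.71) with a value of 0.41 in cKO mice (edgeR adjusted p = 0.0509). *Acpp*, which also makes adenosine, fell in cKO mice (by 0.30) with a value of -0.07 in control mice (adjusted p = 0.601). The interaction did not pass the test for either (adjusted p = 0.9999 each).

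Of 10 other proton-sensing genes and partners of acid-sensing channels, 8 were tested in the ganglia and 1 rose in each genotype, beside 12.9% of all genes in control and 10.7% in cKO mice. *Stom*, a membrane protein that binds acid-sensing channels, went from 47.2 ± 8.74 to 112 ± 8.78 CPM in control and from 44.9 ± 1.66 to 100.6 ± 5.88 CPM in cKO mice (SD, n = 3 each). Its log2 fold changes were 1.24 and 1.15, more than those of any of the 10 channels. *Stom* also stood higher on the operated than on the opposite side of sham mice (n = 2 each). The means were 60.75 against 38.37 CPM in control and 63.29 against 39.38 CPM in cKO mice. Of the 8 genes 0 were called between the sham sides. Between genotypes, in ganglia, neurons and sham mice, the smallest adjusted p by edgeR was 0.554 among the purinergic genes and 0.592 among the proton-sensing ones, both in neurons.

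Across the 26 libraries, after each gene was centred on the mean of its library set, *P2rx6* and *Asic3* followed each other most closely of the 10 genes (Pearson r = 0.93, n = 26). Within the sets r was 0.66 over 12 naive and injured libraries, 0.99 over 6 neuron libraries and 0.83 over 8 sham libraries, and it was 0.82 without the 2 libraries farthest from the median of *P2rx6* (neuron control replicate 1 and neuron cKO replicate 2). *P2rx6* also followed *Asic1* (0.74), and *P2rx5* followed *Asic3* (0.65), while *P2rx3* and *Asic1* went opposite ways (-0.41). Libraries share depth, tissue make-up and, in the sham mice, animals, so these are descriptions.

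**Figure D4:**
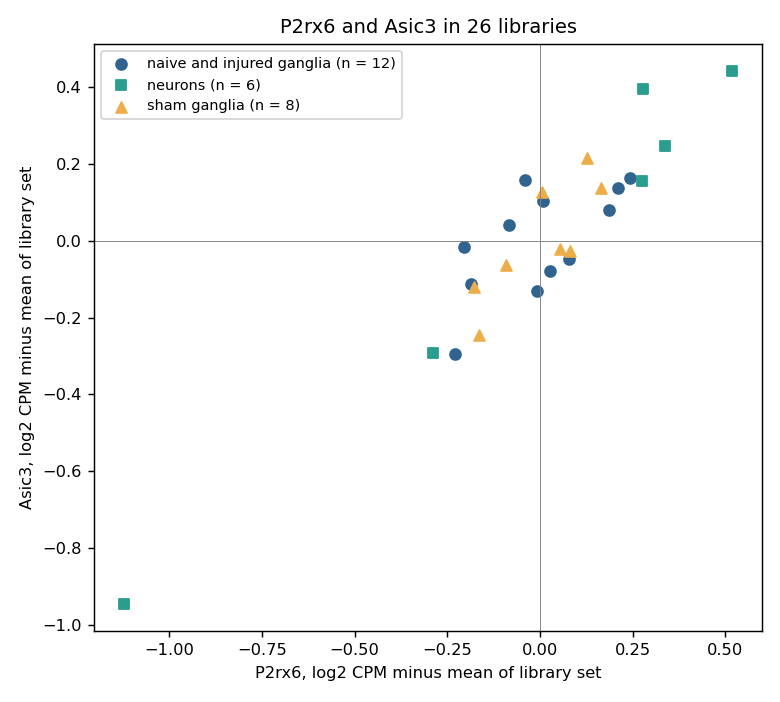
*P2rx6* against *Asic3* in the 26 libraries, each as log2 CPM minus the mean of its library set (12 ganglia, 6 neuron and 8 sham libraries). The neuron libraries spread most, and neuron control replicate 1 lies alone at the lower left (-1.12 for *P2rx6* and -0.95 for *Asic3*).

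Among 13190 genes with a mean of at least 1 CPM in every set, those most like each channel by the same measure were as follows. *Scn4b*, a sodium channel subunit, and *Faim2* were most like *P2rx6* (r = 0.97 each). *Cpne6* and *Lynx1* were most like *Asic3* (0.96 and 0.94), *Camkk1* and *Rapgef5* most like *Asic1* (0.95 each), and *Pirt* and *Prkce* most like *Asic2* (0.85 each). *Acly* and *Mmp25* were most like *P2rx3* (0.93 and 0.92), *Dffa* and *Galnt9* most like *P2rx5* (0.94 and 0.93), and *Gatm* and *Itga6* most like *P2rx7* (0.86 and 0.85). The closest genes to *P2rx4*, *P2rx2* and *Asic4* reached 0.77 (*Tmem208*), 0.71 (*Gabrg3*) and 0.70 (*Hcn3*).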

How the data were processed

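The authors deposited whole-number counts per gene and FPKM in a table of 12 libraries and a supplemental one of 14. The library kit was TruSeq Stranded mRNA (per the labels), and the submitters' processing notes name Trim Galore, HISAT2, featureCounts and mm10. The strand setting is not given in the sources used here, so reads in overlapping genes are uncertain. The deposited FPKM divide by gene span and served only for a second order of levels.

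Counts were tested with edgeR 4.0.16 in R 4.3.3 (quasi-likelihood test, filterByExpr with minimum count 10 and minimum total 15, TMM, 1 mean per group, two-sided). Benjamini-Hochberg adjustment ran over all genes of a comparison, with a threshold of 0.05. Naive and injured libraries, neurons, sham libraries, and naive ganglia with neurons were fitted as 4 sets (21261, 23295, 22160 and 22185 genes). The SE is the log2 fold change divided by the root of F. CPM levels used TMM over 26 libraries, exon lengths came from GENCODE M21, and 55141 genes matched a symbol. The procedure was tested on data simulated for the 12 naive and injured libraries only. Replicates of each group differed by more than counting noise (chi-square per degree of freedom 3.32 to 39.9). Both sides of a sham mouse are paired by the animal (correlation of deviations -0.16 in cKO, 0.23 in control), and the mouse block changed no call among the 10 members (over all genes 1 was called between the sides without it and 4 with it).

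Alternatives were DESeq2 1.42.0, RLE factors, other filters, a replicate block, a sex covariate, separate fits and leaving out replicates. Leaving out both libraries that went against their labelled sex, and crossing the sham sides of the cKO mice, were added after seeing the data. All 10 members were named throughout. Of the pathway lists those called after injury were named, and likeness was Pearson's r of centred log2 CPM (prior count 2) over genes that were neither sex-linked nor clone names. Members and lists were chosen with earlier results of these data known.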

Additional observations from a re-analysis of the deposited data

Results flagged for a closer look

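Values of *Asic1* had opposite signs between genotypes in different settings. The cKO libraries were all higher than the control libraries in injured ganglia (log2 fold change 0.15) and in neurons (0.34), and all lower in sham ganglia on the operated side (-0.50) and on the opposite side (-0.18). In naive ganglia the groups overlapped (0.06). Over the 10 genes, 4 of 100 pairs of settings were opposite in this way, all for *Asic1*, beside 2.12% of pairs over all genes tested in all 5 settings. Of 19941 genes tested in all 5 settings, 3195 (16%) had at least 1 such pair, so 1 of 10 is no more than the share of all genes. Groups without overlap were also seen in 8.73% of all genes in injured ganglia, 14.7% in neurons, and 35.8% and 38.3% on the sham sides, which came from the same 4 mice. The difference between these settings was not tested. None of the 4 values was called by edgeR with its filter on low counts. That of the operated side was called by DESeq2 and by edgeR without the filter (adjusted p = 5.17e-04).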

How the results depend on the processing

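In control mice after injury the number of genes called was 4, and 2 to 3 when 1 replicate was left out. It was 3 without filter, 3 in a fit of the compared groups alone and 4 with DESeq2. In cKO mice it was 3, and 3 to 4 when 1 replicate was left out. With transcript sex as a covariate these calls were lost, in a fit that rests on injured cKO replicate 1 alone. On the operated side of sham mice it was 0, and 1 without filter and with DESeq2. No named call changed sign.

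Replicate numbers did not pair the naive, injured or neuron libraries (correlations of deviations -0.39 to 0.39 between same-numbered ones). With the replicate number as a block, 3 genes were called after injury in control mice (*P2rx6* lost, adjusted p = 0.0597) and 3 in cKO mice, 0 between genotypes in ganglia, neurons and sham mice, and 7 in neurons against naive ganglia in each genotype. With the mouse as a block 0 genes were called between sham sides, also with the cKO sides crossed. Counts near 1 CPM limit *Asic4*. Under TMM within each library set, levels moved by a factor of 0.919 to 1.06.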
